A study of Mus musculus with 9 samples.

Results

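The 10 genes described here are those named for the CD142+ stromal cells of mouse fat or seen to be high in CD142+ cells in these data: Fmo2, Mgp, Vit, Bst1, Cygb, Gas6, Cpe, Clec11a, Prdm6 and Ripor2. They are 10 of the 20655 genes in the deposited tables, matched by Ensembl identifier, and all 10 have a row. Messenger RNA was sequenced from cells sorted by flow cytometry out of digested inguinal and axillary white fat. The mice were C57BL/6 animals, 12 days old, with males and females mixed, and no genetic change or treatment is named for any group. The sort gave 3 populations of 3 libraries each, DPP4+ cells, ICAM1+ cells and CD142+ cells, 9 libraries in all. CD142 is tissue factor, the product of F3, so F3 marks the sort itself. Whether these libraries stem from different animals is not stated in the labels, so each p-value reflects only how the libraries vary, in which technical variation may have a part. Values per library were not used here. The results rest on the authors' mean over all libraries, their log2 fold changes between populations and the standard errors (SE) of these, all deposited.

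The connective tissue of fat holds several kinds of fibroblast-like cells around the vessels and between the lobules, some of which can turn into fat cells. CD142+ cells are one of these kinds and have been described as regulatory because they can hold back fat cell formation by their neighbours in culture. The genes listed for them have no single function. Mgp and Gas6 encode secreted proteins whose glutamate residues are carboxylated with vitamin K, Vit and Clec11a other secreted proteins, Fmo2, Cpe and Bst1 enzymes, Cygb a globin, and Prdm6 and Ripor2 proteins that act inside the cell.

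RefSeq start-site windows (GRCm38.p6, 250 bases before to 50 after a start) were at hand for 4 of the genes, Fmo2, Gas6, Clec11a and Ripor2, in 7 windows, since Fmo2 has 2 starts and Ripor2 has 3. The windows of Fmo2 and Ripor2 are shown because these were the marker genes with the largest difference between CD142+ and DPP4+ cells. Each has other starts whose windows are not printed, and of the Ripor2 windows only the printed one holds CAGCTG. Both are printed 5′ to 3′ on the strand of the gene, and capitals mark CAGCTG, a hexamer of the E-box class.
Fmo2, chr1:162898709-162899008, minus strand: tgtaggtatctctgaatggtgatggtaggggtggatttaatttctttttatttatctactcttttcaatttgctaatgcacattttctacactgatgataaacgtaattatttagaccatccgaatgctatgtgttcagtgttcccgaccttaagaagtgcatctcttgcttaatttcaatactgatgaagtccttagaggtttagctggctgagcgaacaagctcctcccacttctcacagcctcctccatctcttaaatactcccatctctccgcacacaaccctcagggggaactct
Ripor2, chr13:24638398-24638697, plus strand: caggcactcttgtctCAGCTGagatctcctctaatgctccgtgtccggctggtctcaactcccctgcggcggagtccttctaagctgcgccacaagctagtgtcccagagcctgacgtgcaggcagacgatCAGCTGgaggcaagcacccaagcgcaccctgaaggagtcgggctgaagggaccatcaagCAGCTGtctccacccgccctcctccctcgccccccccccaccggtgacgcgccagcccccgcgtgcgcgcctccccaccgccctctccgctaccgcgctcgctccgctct
The Fmo2 window holds 41.3% G and C and 5 CpG steps, which places it at percentile 12.8 of G and C content among 32851 windows. That of Ripor2 holds 67.3% G and C and 24 CpG steps, at percentile 86.2, while the median window has 52.7% and 7 CpG. This contrast depends on the start, since the other Fmo2 window holds 47.7% G and C with 5 CpG and the other Ripor2 windows hold 50.3% and 50% with 10 and 6 CpG. CAGCTG, which reads the same on both strands, occurs 3 times in the Ripor2 window, starting 235, 119 and 60 bases before the start, and at least once in 16.3% of all windows. The other motifs searched on both strands were TATAAA (in 13.6% of windows), TGANTCA (7.81%), CCCNNGGGA (6.56%), GGAATG (14.7%) and GACCACCCA (0.253%). None of the 6 was found in the windows of Fmo2, Gas6 or Clec11a, and a second Ripor2 window (chr13:24614356-24614655) holds CCCNNGGGA on the other strand, 42 to 34 bases before the start. The remaining Ripor2 window (chr13:24581939-24582238), at the annotated start of the gene, holds none of the 6. A match in letters is no more than that, and the 4 genes share none of these motifs.

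CD142+ cells had the highest fitted level of 9 of the 10 marker genes, and ICAM1+ cells came between CD142+ and DPP4+ cells for 8 of them. A fitted level is the normalised count of a population, that is the read count scaled for library size, computed from the authors' mean and fold changes. Prdm6 was high in CD142+ cells alone, and Bst1 was barely detected in any population. The first 9 genes had a mean of at least 100 normalised counts and a deposited adjusted p in all 3 comparisons. Bst1 had no adjusted p in any, because the authors' fit filters out genes with low counts. Less RNA per cell and fewer cells of a kind within a sorted population cannot be told apart in bulk libraries.

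**Figure D1:**
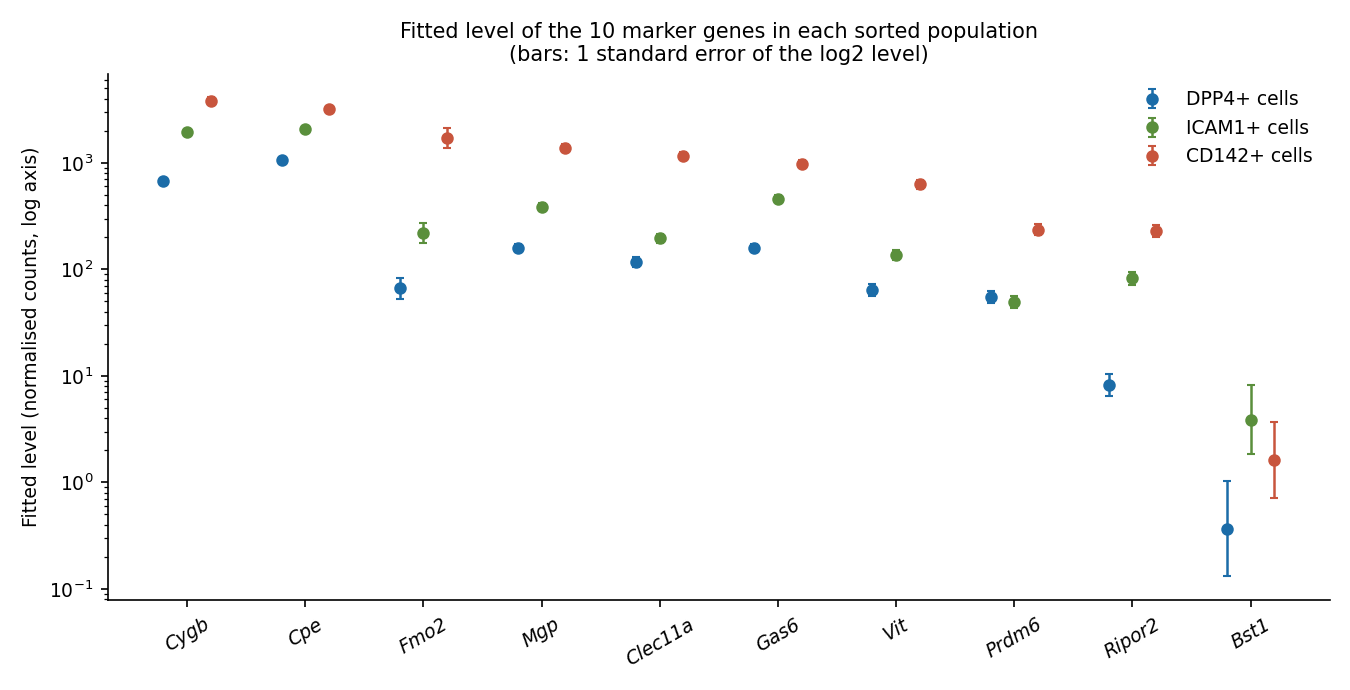
Fitted level of the 10 marker genes (y axis, normalised counts on a log axis) in DPP4+, ICAM1+ and CD142+ cells, 3 libraries each, with bars of 1 SE of the log2 level. CD142+ cells are highest for 9 genes, from 229 (Ripor2) to 3848 (Cygb) normalised counts. Bst1 lies at 0.366 to 3.88 with wide bars, that of CD142+ cells overlapping both others.

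Because the genes were chosen for their level in CD142+ cells, both comparisons with CD142+ cells describe them and test nothing. With a call at a deposited adjusted p below 0.05, all 9 genes with such a value were higher in CD142+ than in DPP4+ cells, where 19% of all genes tested were called, 10.1% as higher and 8.91% as lower. In ICAM1+ against CD142+ cells the same 9 were lower, where 9.05% of all genes were called, 3.77% as higher and 5.28% as lower. Being higher in CD142+ cells than in both others held for 337 of 15848 genes, or 2.13%. The median log2 fold change of all 10 genes, Bst1 included, was 2.88 in CD142+ against DPP4+ cells and -1.66 in ICAM1+ against CD142+ cells. Over all genes tested it was -0.00811 and -0.000939. Among the 7952 genes whose mean reached 100, Ripor2 and Fmo2 held ranks 4 and 5 for the highest fold change of CD142+ against DPP4+ cells, Cpe was the lowest of the 9 at rank 200, and Fmo2, Clec11a, Prdm6, Vit and Mgp held ranks 8, 16, 24, 26 and 34 for the lowest in ICAM1+ against CD142+ cells.

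ICAM1+ against DPP4+ is the comparison that the choice of genes does not name, but it shares its DPP4+ libraries with CD142+ against DPP4+, on which they were chosen, and is not independent of that choice. Here 8 of the 9 genes were higher in ICAM1+ cells and none was lower, against 24.4% of all genes called, 12.4% as higher and 12% as lower. The 337 genes that were higher in CD142+ cells than in both others are the closer background, and of these 143 were higher in ICAM1+ than in DPP4+ cells, 10 were lower and 184 did not pass, which rests on the same shared libraries. The median log2 fold change was 1.41 for all 10 genes and 0.0192 over all genes tested. The 10 include Bst1, whose 3.40 ± 1.84 had no adjusted p. Against a minimum change, a Wald test of a log2 fold change over 1 instead of over 0, 3 of the 8 (Ripor2, Cygb and Gas6) passed. Markers of other cell types moved in the same comparison. Of 12 mural cell markers (genes of pericytes and smooth muscle), 7 were higher and 1 was lower in ICAM1+ than in DPP4+ cells, and their levels summed to 3066 normalised counts in DPP4+, 11498 in ICAM1+ and 7063 in CD142+ cells. Rgs5, a pericyte marker, stood at 498, 2262 and 805 in the same order, and Higd1b, the lowest of the mural list, had a mean of 6.57. All Schwann cell markers together summed to 1280, 2699 and 1092, with 5 of 6 higher in ICAM1+ than in DPP4+ cells, and endothelial markers to 2422, 3642 and 2314, with 6 of 8 higher. Immune markers summed to 213, 358 and 256, the lowest adjusted p among the 7 being 0.0691 (Csf1r). Single markers departed from these sums, 3 of the 12 mural markers (Abcc9, Ndufa4l2 and Kcnj8) being lower in ICAM1+ than in CD142+ cells. The part of these cell types in the result was not tested. Fibroblast markers, Pdgfra, Dcn, Lum, Col1a1, Ly6a and Cd34, were abundant in every population, their summed level being 574120, 349522 and 590926 normalised counts, most of it Col1a1. In ICAM1+ against DPP4+ cells 1 of the 6 was higher and 4 were lower, Ly6a by -1.95 and Cd34 by -2.13 on the log2 scale.

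Mgp, matrix Gla protein, is known for keeping soft tissue and vessel walls free of mineral. It lies on the minus strand of chromosome 6, 136872435 to 136875823 (GRCm38, the assembly also called mm10), and is listed as ENSMUSG00000030218.2. Its fitted level was 159 normalised counts in DPP4+, 386 in ICAM1+ and 1380 in CD142+ cells, with SEs of the log2 level of 0.13, 0.12 and 0.11. CD142+ cells thus held 8.70 times the DPP4+ level (95% interval 6.85 to 11.0) and 3.57 times the ICAM1+ level (2.85 to 4.48). ICAM1+ cells were above DPP4+ cells by 1.28 ± 0.18 on the log2 scale (SE, DESeq2's Wald test, adjusted p = 2.77e-11).

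Gas6, growth arrest-specific 6, shares the vitamin K-dependent Gla domain with Mgp and is the ligand of the receptor kinases Tyro3, Axl and Mertk. The gene (ENSMUSG00000031451.6, chromosome 8, 13465374 to 13494490, minus strand) had fitted levels of 158, 460 and 986 normalised counts in DPP4+, ICAM1+ and CD142+ cells, with SEs of the log2 level of 0.12, 0.11 and 0.11. Its level in CD142+ cells was 6.22 times that in DPP4+ cells (95% interval 4.98 to 7.77) and 2.14 times that in ICAM1+ cells (1.74 to 2.64). In ICAM1+ against DPP4+ cells the log2 fold change was 1.54 ± 0.17 (adjusted p = 9.01e-19). Exons of Tmem255b on the opposite strand cover 1.33% of its exon bases, and the sources name no step that would separate strands.

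The receptors of Gas6 did not share its order. Axl, the most abundant of the 3, was highest in DPP4+ cells, with fitted levels of 15341, 3829 and 4617 normalised counts in DPP4+, ICAM1+ and CD142+ cells, and a log2 fold change of -1.73 ± 0.09 in CD142+ against DPP4+ cells (adjusted p = 2.58e-72). Mertk was higher in CD142+ than in DPP4+ cells (0.86 ± 0.24, adjusted p = 0.00281), at levels of 62.4, 119 and 114 in DPP4+, ICAM1+ and CD142+ cells. Tyro3 had a difference of 0.26 ± 0.22 (adjusted p = 0.502). Among 8 tested genes of Gla proteins and of the vitamin K cycle, 3 were higher and 1 was lower in CD142+ than in DPP4+ cells, beside 10.1% and 8.91% of all genes. Higher were Prrg3, a membrane Gla protein (0.91 ± 0.22, adjusted p = 0.000358), Pros1, the anticoagulant protein S and closest relative of Gas6 (0.41 ± 0.13, adjusted p = 0.0137), and Ggcx, the carboxylase that makes Gla residues (0.49 ± 0.17, adjusted p = 0.0221). Vkorc1l1, a vitamin K epoxide reductase, was lower (-0.51 ± 0.14, adjusted p = 0.00316), and Vkorc1 had a mean of 9.51 normalised counts. Exons annotated outside Vkorc1 on the same strand cover 47.7% of its exon bases, and the part of this overlap in its low count was not tested. Of the 8, only Prrg3 was called in ICAM1+ against CD142+ cells, lower by 0.95 on the log2 scale (-0.95 ± 0.22, adjusted p = 0.000432). The Gas6 protein, read from the coding sequence, has 674 residues and is identical to Pros1 at 42.0% of 659 aligned positions, and Mgp, with 104 residues, matches osteocalcin (Bglap) at 25.8% of 93. Bglap had a mean of 1.19 normalised counts.

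Vit encodes vitrin, a matrix protein with von Willebrand factor A domains. It is listed as ENSMUSG00000024076.9 on the plus strand of chromosome 17, 78508064 to 78627408. Fitted levels were 63.9 normalised counts in DPP4+, 136 in ICAM1+ and 629 in CD142+ cells, with SEs of the log2 level of 0.18, 0.16 and 0.14. The level in CD142+ cells was 9.84 times the DPP4+ level (95% interval 7.24 to 13.4) and 4.63 times the ICAM1+ level (3.47 to 6.17). ICAM1+ cells exceeded DPP4+ cells by 1.09 ± 0.24 on the log2 scale (adjusted p = 3.94e-05). Matrilin 2 (Matn2), a matrix protein with the same kind of domain, stood at 1169, 1138 and 2419 normalised counts in DPP4+, ICAM1+ and CD142+ cells. It was higher in CD142+ than in DPP4+ cells (1.05 ± 0.12, adjusted p = 1.93e-16) and also than in ICAM1+ cells (ICAM1+ against CD142+ -1.09 ± 0.12, adjusted p = 7.72e-17), and between ICAM1+ and DPP4+ cells it differed by -0.04 ± 0.12 (adjusted p = 0.877). Matn4 was lower in CD142+ than in DPP4+ cells (-2.17 ± 0.44, adjusted p = 1.41e-05). Cochlin (Coch), the relative with the highest identity to vitrin (42.9% of 545 aligned positions), had a mean of 3.27 normalised counts.

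Clec11a encodes osteolectin, a secreted C-type lectin known for promoting bone formation through the integrin of Itga11 and Itgb1. The gene lies on chromosome 7, 44302687 to 44306902, minus strand (ENSMUSG00000004473.10). At 118, 196 and 1151 normalised counts in DPP4+, ICAM1+ and CD142+ cells (SEs of the log2 level 0.15, 0.14 and 0.13), it stood low in both DPP4+ and ICAM1+ cells beside CD142+ cells. The CD142+ level was 9.79 times that of DPP4+ cells (95% interval 7.53 to 12.7) and 5.87 times that of ICAM1+ cells (4.56 to 7.56). ICAM1+ cells were above DPP4+ cells by 0.74 ± 0.20 (adjusted p = 0.00173). Its receptor chain Itga11 was lower in CD142+ than in DPP4+ cells (-1.07 ± 0.13, adjusted p = 3.94e-14), with levels of 1359, 614 and 646 in DPP4+, ICAM1+ and CD142+ cells. For Itgb1 the difference was -0.03 ± 0.10 (adjusted p = 0.904). Clec3b, the related lectin tetranectin, was lower as well (-0.97 ± 0.11, adjusted p = 2.52e-17), and its protein shares 28.9% of 190 aligned positions with Clec11a.

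Fmo2 encodes a flavin-containing monooxygenase, an enzyme that adds oxygen to nitrogen and sulfur atoms of foreign compounds and is known from the lung. It lies on the minus strand of chromosome 1, 162874317 to 162898726 (ENSMUSG00000040170.13). Its fitted level was 66.1 normalised counts in DPP4+, 221 in ICAM1+ and 1721 in CD142+ cells. The SEs of the log2 level were 0.33, 0.31 and 0.31, in ICAM1+ and CD142+ cells the largest of the 9 genes. CD142+ cells held 26 times the DPP4+ level with a 95% interval of 14.1 to 48.0, and 7.79 times the ICAM1+ level (4.28 to 14.2). In ICAM1+ against DPP4+ cells the log2 fold change was 1.74 ± 0.45 (adjusted p = 0.000936). Fmo1, whose gene is 7706 bases away on the same strand, followed the same order at a smaller range, with 304, 429 and 717 normalised counts in DPP4+, ICAM1+ and CD142+ cells. It was higher in CD142+ than in DPP4+ cells (1.24 ± 0.14, adjusted p = 3.92e-17) and than in ICAM1+ cells (ICAM1+ against CD142+ -0.74 ± 0.14, adjusted p = 3.68e-06), and ICAM1+ cells exceeded DPP4+ cells (0.50 ± 0.14, adjusted p = 0.00315). Fmo5 differed by 0.09 ± 0.28 between CD142+ and DPP4+ cells (adjusted p = 0.900). Fmo4 passed there (3.03 ± 1.07, adjusted p = 0.0287) with a mean of 6.76 normalised counts. The Fmo2 protein of 535 residues is identical to Fmo1 at 55.6% of 532 aligned positions.

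Cpe encodes carboxypeptidase E, which trims basic residues from peptide hormones after they have been cut by prohormone convertases. It lies on chromosome 8, 64592542 to 64693054, minus strand (ENSMUSG00000037852.8). With 1070, 2080 and 3237 normalised counts in DPP4+, ICAM1+ and CD142+ cells (SEs of the log2 level 0.08 in each), it had the smallest range of the 9 genes. The CD142+ level was 3.03 times the DPP4+ level (95% interval 2.59 to 3.53) and 1.56 times the ICAM1+ level (1.34 to 1.81). ICAM1+ cells were above DPP4+ cells by 0.96 ± 0.11 (adjusted p = 1.19e-15). The convertases that act before Cpe in endocrine cells were nearly absent, Pcsk1 at a mean of 1.30 and Pcsk2 at 15.96 normalised counts. Pcsk6, a convertase of growth factor precursors, was higher in DPP4+ cells, at 5663 against 821 and 942 normalised counts in ICAM1+ and CD142+ cells (-2.59 ± 0.14 in CD142+ against DPP4+ cells, adjusted p = 1.35e-78). Of 14 tested carboxypeptidases, convertases and partners, 2 were higher in CD142+ than in DPP4+ cells, Cpxm2 (1.42 ± 0.34, adjusted p = 0.000350) and Cpxm1 (0.33 ± 0.12, adjusted p = 0.0380), a share near the 10.1% of all genes. Unlike Cpe, both had their highest fitted level in ICAM1+ cells. Cpxm2 stood at 23.8, 87.8 and 63.7 and Cpxm1 at 1625, 2474 and 2044 normalised counts in DPP4+, ICAM1+ and CD142+ cells, with no call between ICAM1+ and CD142+ cells. Aebp1 (-0.58 ± 0.13, adjusted p = 4.74e-05) and Cpq (-0.73 ± 0.15, adjusted p = 2.60e-05) were lower beside Pcsk6. Cpz, a secreted carboxypeptidase at 3627 normalised counts on average, differed by -0.15 ± 0.11 (adjusted p = 0.471), and ICAM1+ cells fell below CD142+ cells (-0.40 ± 0.11, adjusted p = 0.00898). Cpz shares 50.4% of 419 aligned positions with Cpe.

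Bst1, also called CD157, encodes a membrane-anchored enzyme that turns over NAD and is the paralog of Cd38. For this gene (ENSMUSG00000029082.17, chromosome 5, 43818885 to 43843986, plus strand) the data give no order. Its mean was 1.96 normalised counts, with fitted levels of 0.366 in DPP4+, 3.88 in ICAM1+ and 1.63 in CD142+ cells. The log2 fold changes were 2.15 ± 1.90 in CD142+ against DPP4+ cells, 3.40 ± 1.84 in ICAM1+ against DPP4+ and 1.25 ± 1.60 in ICAM1+ against CD142+ cells, and the 95% interval of each held 0. A difference was not detectable at this depth, and the point estimate was higher in ICAM1+ than in CD142+ cells. Cd38, the next gene on the same strand, stood at 26.2, 45.7 and 30.7 normalised counts in DPP4+, ICAM1+ and CD142+ cells, with no call in any comparison (adjusted p from 0.127 to 0.80). Among the 8 NAD enzymes tested, Enpp1 was higher in CD142+ than in DPP4+ cells (1.06 ± 0.32, adjusted p = 0.00599) and higher again in ICAM1+ than in CD142+ cells (0.95 ± 0.28, adjusted p = 0.0129). Nt5e, which encodes the progenitor marker CD73, was lower in CD142+ than in DPP4+ cells (-2.72 ± 0.30, adjusted p = 7.08e-18). Bst1 and Cd38 share 36.7% of 275 aligned positions.

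Cygb encodes cytoglobin, a heme protein found in fibroblasts and in the stellate cells of the liver. It is listed as ENSMUSG00000020810.5 on the minus strand of chromosome 11, 116645595 to 116654313. It was the most abundant of the marker genes in CD142+ cells and second to Cpe in the other populations, with 670, 1930 and 3848 normalised counts in DPP4+, ICAM1+ and CD142+ cells and SEs of the log2 level of 0.10, 0.10 and 0.09. CD142+ cells held 5.75 times the DPP4+ level (95% interval 4.77 to 6.92) and 1.99 times the ICAM1+ level (1.66 to 2.39). ICAM1+ cells exceeded DPP4+ cells by 1.53 ± 0.14 (adjusted p = 5.67e-27). Exons of Prcd on the opposite strand cover 8.62% of its exon bases. Prcd had log2 fold changes of 2.44 in CD142+ against DPP4+ and 1.58 in ICAM1+ against DPP4+ cells, near those of Cygb. The part of Prcd reads in the level of Cygb was not tested. The other globins listed, Hba-a1, Hbb-bs, Mb and Ngb, had differences between CD142+ and DPP4+ cells of -0.05 ± 0.30, -0.20 ± 0.30, -0.03 ± 1.14 and 0.29 ± 1.13, the lowest unadjusted p by DESeq2's Wald test being 0.506 (Hbb-bs). The sign of Hba-a1 and Mb turns when fold changes are re-centred on the median gene. Cygb matches myoglobin (Mb) at 28.6% of 154 aligned positions.

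Prdm6 encodes a PR domain protein that represses transcription and is known from smooth muscle. The gene (ENSMUSG00000069378.13, chromosome 18, 53463583 to 53575907, plus strand) had fitted levels of 54.7 normalised counts in DPP4+, 49.4 in ICAM1+ and 236 in CD142+ cells, with SEs of the log2 level of 0.19, 0.20 and 0.16. It was the marker gene for which DPP4+ and ICAM1+ cells did not differ beyond their spread, the log2 fold change being -0.15 ± 0.28 with a 95% interval of -0.69 to 0.39 (adjusted p = 0.778). CD142+ cells held 4.32 times the DPP4+ level (95% interval 3.06 to 6.09) and 4.78 times the ICAM1+ level (3.38 to 6.76). Of 12 mural markers, 6 were higher and 0 lower in CD142+ than in DPP4+ cells, beside 10.1% and 8.91% of all genes tested. The 6 were Rgs5, Notch3, Acta2, Mcam, Abcc9 and Ndufa4l2. Notch3 had levels of 379.5, 3887 and 2444 normalised counts in DPP4+, ICAM1+ and CD142+ cells and Acta2, smooth muscle actin, had 171, 1263 and 359. Myh11, the smooth muscle myosin, stood at 205, 1181 and 289. Abcc9, a channel subunit of pericytes, had 696, 855 and 1640 and Ndufa4l2 had 34.6, 97.7 and 230.5, both highest in CD142+ cells like Prdm6. Kcnj8, also on the mural list, was highest in DPP4+ cells, at 399, 95.9 and 340 in the same order. The mural list was thus divided, its markers not being highest in the same population. The part of mural cells in the level of Prdm6 was not tested. Among the 11 other PRDM genes tested, only Prdm8 was called in CD142+ against DPP4+ cells, and it was lower (-2.80 ± 0.30, adjusted p = 3.04e-19). Prdm16, a regulator of brown and beige fat cells, had levels of 36.7, 98.9 and 43.9 in DPP4+, ICAM1+ and CD142+ cells and was higher in ICAM1+ than in CD142+ cells (1.17 ± 0.30, adjusted p = 0.00245).

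Ripor2 encodes a protein that binds and restrains a small GTPase of the cytoskeleton. It lies on the plus strand of chromosome 13, 24582189 to 24733816 (ENSMUSG00000036006.19). Its fitted level was 8.24 normalised counts in DPP4+, 82.1 in ICAM1+ and 229 in CD142+ cells, with SEs of the log2 level of 0.34, 0.20 and 0.18. CD142+ cells held 27.7 times the DPP4+ level (95% interval 16.4 to 46.9) and 2.78 times the ICAM1+ level (1.94 to 4.0). ICAM1+ cells were above DPP4+ cells by 3.32 ± 0.40 (adjusted p = 1.67e-15), the largest such difference among the 9 marker genes with an adjusted p. Ripor3, a relative with 39.6% identity over 928 aligned positions, had 29.6, 213 and 123 normalised counts in DPP4+, ICAM1+ and CD142+ cells. It too was higher in CD142+ than in DPP4+ cells (2.06 ± 0.29, adjusted p = 2.59e-11), but its highest level was in ICAM1+ cells (0.79 ± 0.25 against CD142+ cells, adjusted p = 0.0181). Ripor1 differed by -0.23 ± 0.15 between CD142+ and DPP4+ cells (adjusted p = 0.341).

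**Figure D2:**
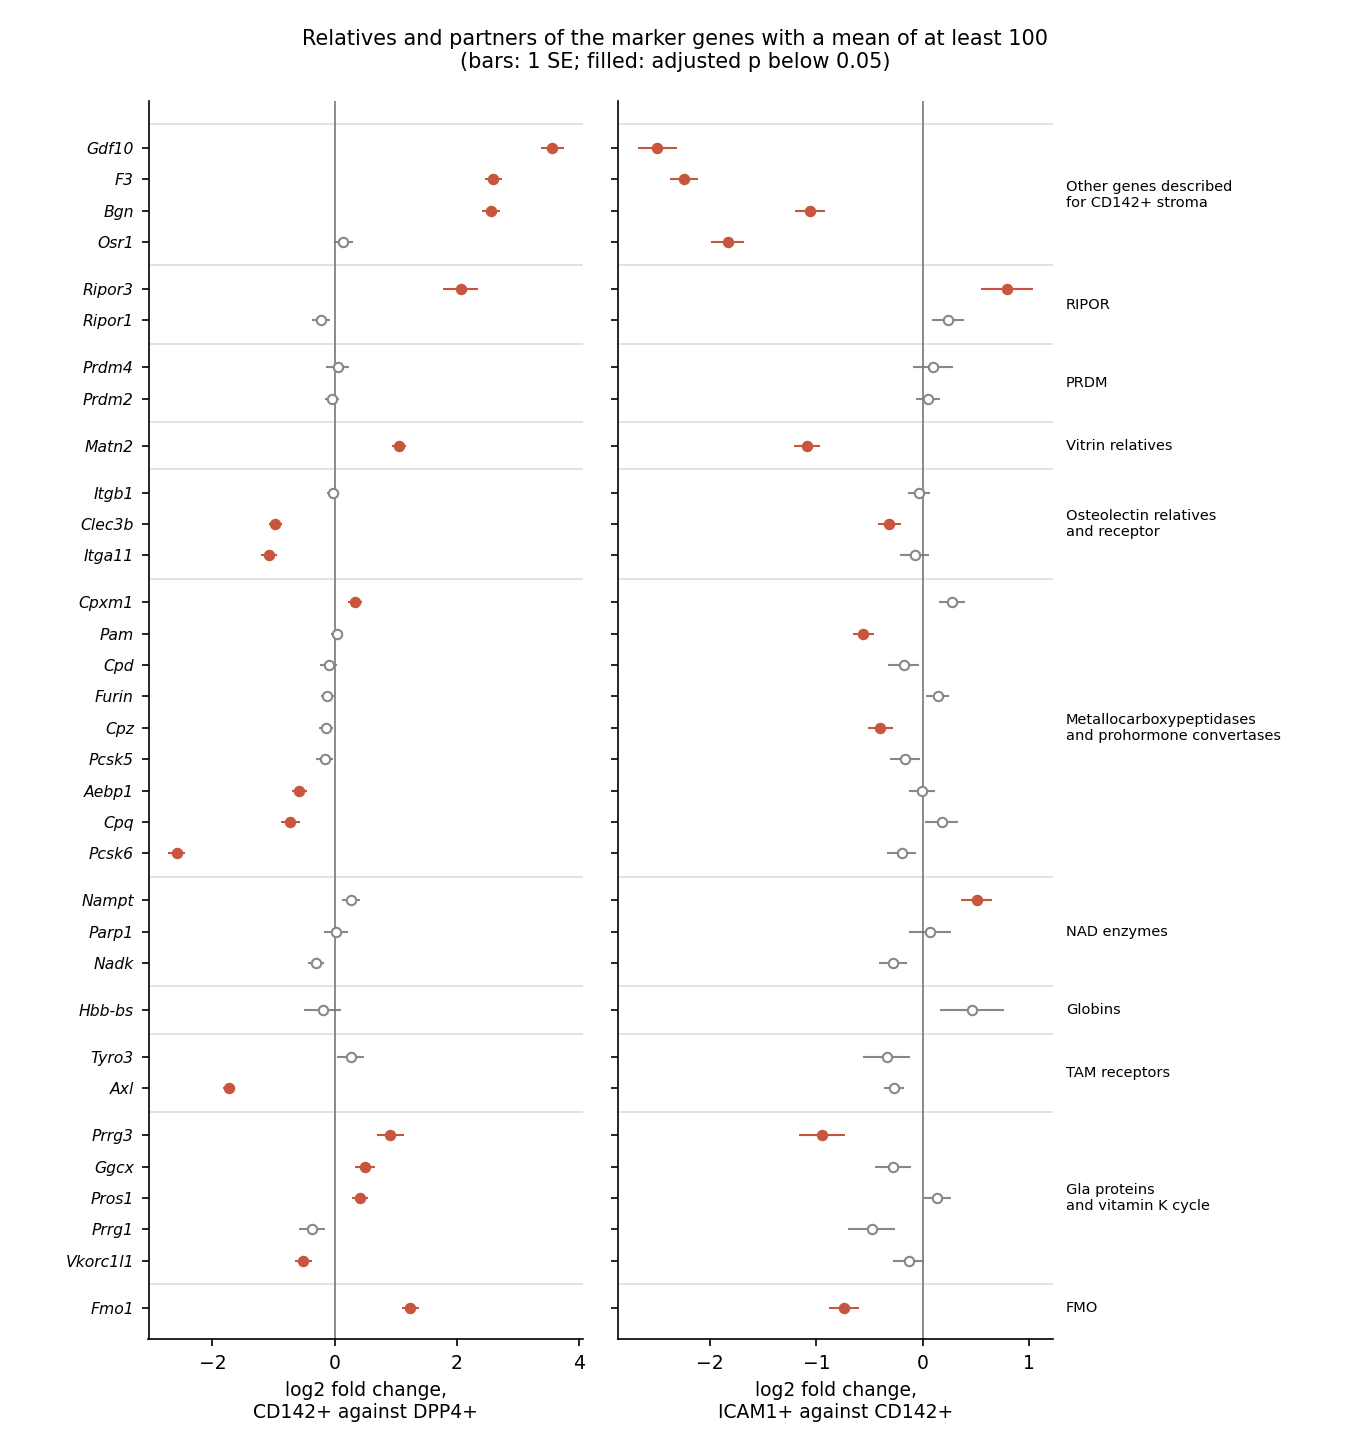
Log2 fold changes of relatives and partners of the marker genes with a mean of at least 100 that are reported here, grouped by family, in CD142+ against DPP4+ cells (left) and ICAM1+ against CD142+ cells (right), with bars of 1 SE and filled points at an adjusted p below 0.05. Fmo1 and Matn2 lie to the right on the left panel (1.24 and 1.05) and to the left on the right panel (-0.74 and -1.09), while Ripor3 lies to the right on both (2.06 and 0.79).

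Over all 11 families, 79 of 92 listed genes had a row. In CD142+ against DPP4+ cells, 19 of 73 tested were higher and 13 were lower. The share called was 43.8% against the 19% of all genes. Of the 19 higher genes, 8 come from a list gathered with results of these data known, so this share is not independent of them. The median log2 fold change over all 79 genes with a row, tested or not, was 0.05, beside -0.00811 over all genes tested. The lists hold 11 further genes described for CD142+ stroma, which were gathered with results of these data known, so their direction is no independent evidence. Of these 11, 8 were higher in CD142+ than in DPP4+ cells, among them F3, Gdf10, Bgn, Aldh1a2, Spink2, Fgf12 and Crabp2, and 7 were lower in ICAM1+ than in CD142+ cells. Abcg1 (0.33 ± 0.43, adjusted p = 0.717) and Rtp3 (0.65 ± 0.80, adjusted p = 0.695) were not called in CD142+ against DPP4+ cells. The fitted level of Abcg1 was highest in ICAM1+ cells, at 21.6, 43.6 and 27.1 normalised counts in DPP4+, ICAM1+ and CD142+ cells. Osr1, a transcription factor of connective tissue, differed by 0.14 ± 0.15 in the first comparison (adjusted p = 0.625) but was lower in ICAM1+ than in CD142+ cells (-1.84 ± 0.16, adjusted p = 2.59e-28). In ICAM1+ against CD142+ cells 4 family genes were higher and 14 lower of 71 tested, a share called of 25.4% beside 9.05% of all genes. Of the 14 lower, 7 are from the same 11 genes described for CD142+ stroma. In ICAM1+ against DPP4+ cells 13 were higher and 18 lower of 73, or 42.5% beside 24.4%, and after re-centring on the median gene 18 were higher and 18 lower.

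How far ICAM1+ cells shared the difference between CD142+ and DPP4+ cells was unlike from gene to gene. The measure is the log2 fold change of ICAM1+ against DPP4+ cells over that of CD142+ against DPP4+ cells, which is 0 where ICAM1+ cells stood at the DPP4+ level and 1 where they stood at the CD142+ level. Both comparisons share the DPP4+ libraries, and the ratio is a description. It was highest for Ripor2 (0.692, 95% interval 0.587 to 0.796), followed by Cygb (0.605, 0.514 to 0.697), Cpe (0.601, 0.480 to 0.721) and Gas6 (0.583, 0.481 to 0.685). The intervals of these 4 overlap, so they have no order among themselves. Lower estimates were those of Mgp (0.411, 0.316 to 0.506), Fmo2 (0.370, 0.207 to 0.534) and Vit (0.330, 0.210 to 0.450), with intervals of which those of Mgp and Fmo2 reach into the range of Gas6 and Cpe and that of Vit into the range of Clec11a. Clec11a followed with 0.224 (0.116 to 0.332) and Prdm6 with -0.069 (-0.334 to 0.196), and F3, the gene of the CD142 sort, had 0.136 (0.035 to 0.237). Of the other sort genes, Icam1 stood at 1162, 7966 and 7058 normalised counts in DPP4+, ICAM1+ and CD142+ cells. Its RNA thus did not separate ICAM1+ from CD142+ cells (0.17 ± 0.15, DESeq2's Wald test, adjusted p = 0.631). Dpp4 stood at 5466, 89.9 and 729 in the same order.

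**Figure D3:**
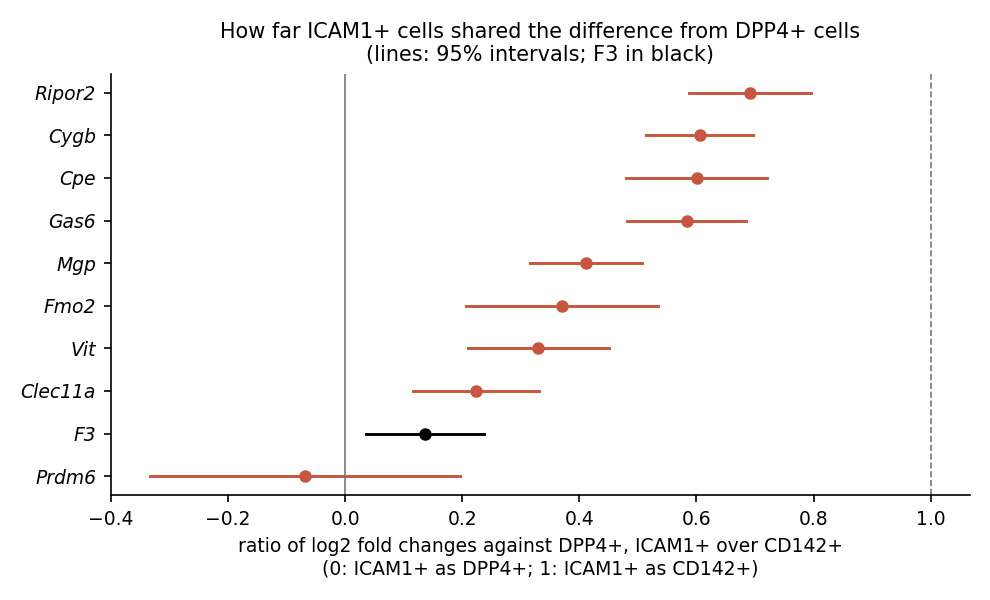
Ratio of the log2 fold change of ICAM1+ to that of CD142+ cells, both against DPP4+ cells (x axis, 0 for the DPP4+ level and 1 for the CD142+ level), for the 9 marker genes with a mean of at least 100 and for F3 in black, with 95% intervals as lines. Ripor2, Cygb, Cpe and Gas6 lie between 0.583 and 0.692, Clec11a and Prdm6 at 0.224 and -0.069.

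**Figure D4:**
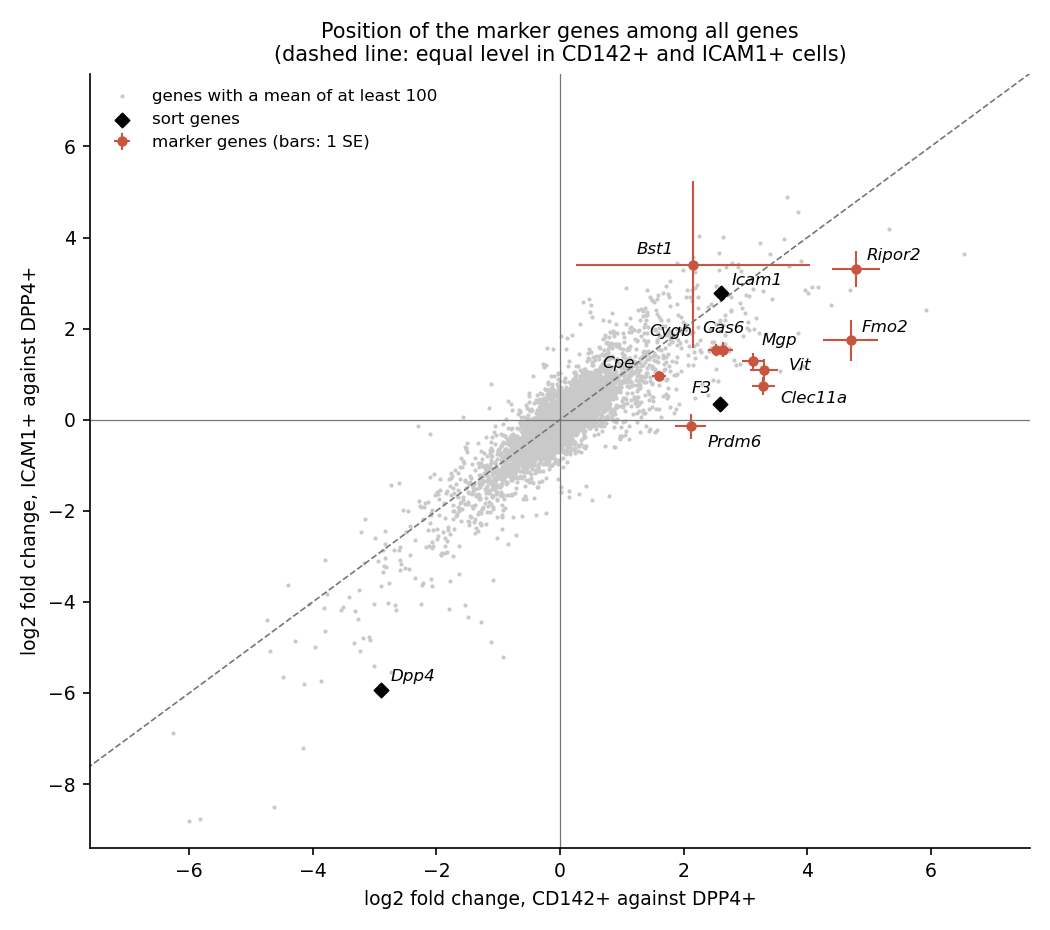
Log2 fold change of CD142+ (x axis) and of ICAM1+ cells (y axis), both against DPP4+ cells, for the 10 marker genes with bars of 1 SE, the 3 sort genes as diamonds and all genes with a mean of at least 100 in grey. The 9 marker genes other than Bst1 lie below the dashed line of equal level in CD142+ and ICAM1+ cells, where Fmo2 stands at 4.70 and 1.74 and Prdm6 at 2.11 and -0.15, while Bst1 has bars that cross the line.

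The genes most like each marker gene were found by the distance between 2 genes in the plane of these 2 log2 fold changes, over the 3 populations and 7555 genes, those whose mean reached 100 and whose symbol is not that of a predicted gene. Cygb lay closest to Bgn (biglycan, a matrix proteoglycan) at a distance of 0.0454, Cpe to the cytokine gene Lif at 0.0440 and Gas6 to the transporter gene Slc10a6 at 0.0511. The fold changes of Lif have SEs of 0.46, so its place is loose. Vit and Clec11a had the same nearest gene, Gdf10, which encodes a TGF-beta family ligand, at 0.257 and 0.417. Gdf10 stood at 220, 459 and 2585 normalised counts in DPP4+, ICAM1+ and CD142+ cells. Mgp lay closest to Spock2 (0.211), Prdm6 to Fbln1 (0.452), Ripor2 to Tspan11 (0.471) and Fmo2 to Gria4, a glutamate receptor gene, at 0.846, the largest of these distances. For Bst1 the nearest was Sema5b (0.157), set by fold changes with SEs of 1.84 and 1.90.

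The authors' fit gives each gene 1 dispersion, a measure of its spread over all 9 libraries, which the deposited SEs carry. Solved from them, the relative standard deviation of a library at the CD142+ level was 9.41% for Cpe, 11.3% for Cygb, 12.8% for Gas6, 13.6% for Mgp, 15.1% for Clec11a, 17.1% for Vit, 19.6% for Prdm6 and 21.7% for Ripor2. It is a value of the fit, so it does not measure the CD142+ libraries on their own. At the lower DPP4+ level it was larger for each gene, by little for Cpe (9.79%) and most for Ripor2 (41.2%). Rarer genes have larger values, so each gene was set beside 201 genes of like mean. Fmo2 stood apart with 37.1%, where the median of these genes was 11.5% and Fmo2 lay at percentile 99. Clec11a lay at percentile 96.5, Vit at 95, Mgp at 91, Ripor2 at 84.6, Cygb and Gas6 at 75.6, Prdm6 at 50.2 and Cpe at 20.9. Which library carried the spread of Fmo2 cannot be read from the deposited values.

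**Figure D5:**
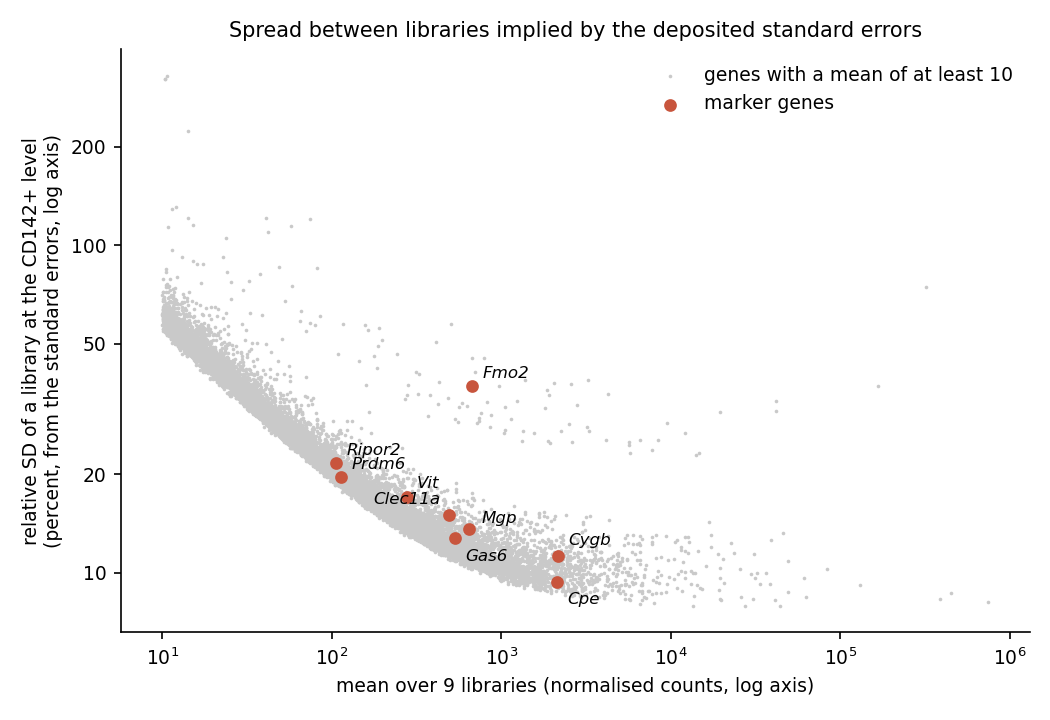
Relative standard deviation of a library at the CD142+ level, solved from the deposited SEs of a fit with 1 dispersion per gene (y axis, percent, log axis), against the mean over 9 libraries (x axis, normalised counts, log axis), for genes whose mean reached 10 in grey and the 9 marker genes above that limit in red. Fmo2 at 37.1% lies above the band of genes of like mean, and Cpe at 9.41% lies within it.

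Per kilobase of exon, which allows genes to be compared with each other, the levels in CD142+ cells ran from 1651 normalised counts per kilobase for Cygb, 1241 for Cpe and 1163 for Mgp, through 387 for Gas6, 386 for Clec11a, 307 for Fmo2 and 195 for Vit, to 67.9 for Prdm6 and 19.6 for Ripor2. In DPP4+ cells the same scale gave 410 for Cpe, 287 for Cygb and 134 for Mgp, and 0.707 for Ripor2. Cygb thus stood above Cpe in CD142+ cells and below it in DPP4+ cells. In ICAM1+ cells they stood at 828 and 797.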

How the data were processed

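Cells were sorted from white fat into DPP4+, ICAM1+ and CD142+ populations, 3 RNA-seq libraries each, grouped by the population in their labels. The submitters' notes name STAR 2.5.2a, mm10, DESeq2 and R 3.5.1. For annotation release and strand setting nothing is given in the sources used here. In all, 3 tables deposited by the authors, 1 per pair of populations, hold 20659 rows, of which 4 name no gene (59.6% of the summed means) and were left out. The mean is a signal made by the authors, counts divided by size factors and averaged over 9 libraries. The log2 fold changes with SEs, the Wald statistic (a score) and the p-values, with Benjamini-Hochberg adjustment, were fitted by the authors with DESeq2 and deposited. An empty adjusted p was kept empty. Depth per library is unknown, so precision is that of the SEs.

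Fold changes added up across the tables within 0.01 for 20612 of 20655 genes, so they were read as 1 fit. From them Python 3.11.15 (pandas 2.3.3, scipy 1.17.1, statsmodels 0.14.6) gave fitted levels, whose errors were solved from the 3 SEs, and 95% intervals. The steps were tested on simulated data. Coordinates, exon overlaps and coding sequences came from GENCODE M21 (GRCm38), and proteins were aligned globally with Biopython 1.88. Adjusted p below 0.05 was a call. The genes named are the 10 marker genes, the 3 sort genes, family lists and the nearest gene of each marker, and a few listed genes are counted but not reported here. Members and lists were chosen with earlier results of these data known. Alternatives changed the threshold (0.01, 0.1), the filter on low means, the minimum fold and the scaling.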

Additional observations from a re-analysis of the deposited data

How the results depend on the processing

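No paired analysis was possible because the deposited tables hold no values per library, and for the same reason no library could be left out. The marker genes called did not change in CD142+ against DPP4+ cells under any alternative. With a Wald test against an absolute log2 fold change of 1, 3 marker genes were called in ICAM1+ against DPP4+ cells instead of 8, and 5 in ICAM1+ against CD142+ cells instead of 9. The family genes called fell to 11, 8 and 4 (from 32, 31 and 18 in CD142+ against DPP4+, ICAM1+ against DPP4+ and ICAM1+ against CD142+ cells), and to 20, 17 and 9 when an absolute log2 fold change of at least 1 was asked for as well, a stricter rule by construction. The 13 higher and 18 lower family genes in ICAM1+ against DPP4+ cells became 18 and 18 after re-centring and 19 and 19 at an adjusted p below 0.1. Re-centring on the median of genes whose mean reached 100 raised the fold changes by 0.05, 0.07 and 0.02. It turned the sign of genes that were not called, to 0.00565 for Hba-a1, 0.018 for Mb, 0.021 for Itgb1, 0.0023 for Prdm2 and 0.012 for Prdm10 in CD142+ against DPP4+ cells. In ICAM1+ against DPP4+ cells it gave 0.027 for Fmo5, 0.026 for Prrg3, 0.028 for Matn2, 0.064 for Prdm2 and 0.047 for Prdm10, and for Aebp1 in ICAM1+ against CD142+ cells 0.016. With a minimum mean of 10, the nearest gene stayed the same for 3 of the 10 marker genes, a wider search by construction. F3 in ICAM1+ against DPP4+ cells (0.35 ± 0.14, adjusted p = 0.0529) was called at an adjusted p below 0.1, with adjustment over genes whose mean reached 10, and after re-centring (0.42).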

Other observations

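The genes next to the marker genes on the chromosome, the nearest on either side that has a row and does not overlap the marker gene, were looked at after the other values were seen. Of these 20 neighbours, 16 were tested in CD142+ against DPP4+ cells, 4 of them were higher and 2 lower, where 19% of all genes were called. Art4, an ADP-ribosyltransferase of the Dombrock blood group, lies 14701 bases from Mgp on the same strand. Its fitted levels were 0.690, 16.9 and 110 normalised counts in DPP4+, ICAM1+ and CD142+ cells, with log2 fold changes of 7.32 ± 1.09 in CD142+ against DPP4+ cells (adjusted p = 4.39e-10) and -2.70 ± 0.42 in ICAM1+ against CD142+ cells (adjusted p = 1.33e-08). Erp27, on the other side of Mgp at 31487 bases, had 0.361, 1.19 and 6.46 normalised counts and no adjusted p in these 2 comparisons. Shank1, 3350 bases from Clec11a on the opposite strand, had 47.8, 52.1 and 134 normalised counts in DPP4+, ICAM1+ and CD142+ cells (1.49 ± 0.31 in CD142+ against DPP4+ cells, adjusted p = 1.70e-05). Fmo1 beside Fmo2 and Rhbdf2 beside Cygb (1.02 ± 0.35, adjusted p = 0.0221) were the other neighbours that were higher. Lower in CD142+ than in DPP4+ cells were Tll1, 386270 bases from Cpe (-2.09 ± 0.24, adjusted p = 3.23e-17), and Cmah, 104811 bases from Ripor2 (-1.98 ± 0.15, adjusted p = 1.13e-37).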
